A study of Mus musculus with 3 samples.

Results

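The stefin A genes and 3 other cystatins, Cstb, Cst3 and Cst7, were examined in sorted mouse yolk sac cells. Cystatins are small proteins that block the active site of papain-like cysteine proteases, chiefly the lysosomal cathepsins. Stefins stay inside the cell, whereas cystatin C and cystatin F carry a signal peptide and enter the secretory and lysosomal route. Humans have a single stefin A gene, CSTA, while the mouse has a cluster of closely related copies on chromosome 16, known for their expression in neutrophils and their precursors and in epidermis.

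Members were the non-control probes named Stfa followed by any suffix, the probes named Cstb, Cst3 or Cst7, and the probe whose transcript is now named Cstdc5. They came to 8 genes with 1 probe each, among 36088 gene or transcript names and 55681 probes on the array: Stfa1, Stfa2, Stfa2l1, Stfa3, Cstdc5, Cstb, Cst3 and Cst7. The stefin A genes had been picked because they were higher alike on both Tie-2-Etv2 arrays. Their differences from control are therefore given as a description, with no test.

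The cells were sorted as VE-Cadherin+/CD45+, that is, carrying an endothelial adhesion protein and a protein of the blood cell surface, and received no treatment after sorting. The 2 Tie-2-Etv2 samples came from yolk sacs with a transgene (Tg) whose product, Etv2, is an ETS family regulator of the earliest blood and vessel cells, switched on by a Tie-2 Cre transgene. The 1 control sample came from E10.5 yolk sacs, a stage stated for this sample only. All carried a mixed background (B6/CBA and others). Tie-2 Cre is known to act in endothelium and in the blood cells that arise from it. Neither the transgenes of the control embryos nor the number of embryos behind a sample is stated, and nor is it said whether replicates 1 and 2 stem from different litters.

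Total RNA was labelled with Cy3 and each sample was hybridised to its own 1-colour array, all 3 on 1 slide read in 1 scan. Between 24218 and 27014 probes were well above background on an array. The replicate 1 array was dimmer, with a 75th percentile of detected probes of 1199 intensity units, against 2092 on replicate 2 and 2073 on the control array. A level is given here as the log2 of the signal after that percentile was subtracted. Etv2 stood at -0.41 and -1.62 in the Tie-2-Etv2 arrays and at -4.84 in the control. The VE-cadherin gene Cdh5 stood at 0.39 and -1.48 against -4.08, and Ptprc, which encodes CD45, at -1.51 and -1.58 against -1.08. Both sorting markers were well above background on every array.

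Several members are near copies of each other, so the probes that measured them are shown first. Each is 60 bases long and was laid out on mm9. The Stfa3 probe lies at chr16:36450693-36450752 on the minus strand, the Cstdc5 probe (named BC100530 in the files) at chr16:36359525-36359584 on the minus strand, and the probe of Cstdc4 (named Gm5483), a stefin A gene of the same cluster that the naming rule left out, at chr16:36188043-36188102 on the plus strand. Capitals mark runs of at least 10 bases that also occur in another of the 3.
Stfa3: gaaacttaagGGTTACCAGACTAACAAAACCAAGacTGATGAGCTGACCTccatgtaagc
Cstdc5: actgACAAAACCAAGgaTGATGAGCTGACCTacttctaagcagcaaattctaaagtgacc
Cstdc4: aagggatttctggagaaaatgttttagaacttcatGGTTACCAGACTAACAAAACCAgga
The longest identical run was 22 bases between Cstdc4 and Stfa3 and 14 bases between Cstdc5 and Stfa3. Across the 11 probes of the cluster the longest was 25 bases, between Csta2 and Cstdc5, and 2 of 55 probe pairs shared 15 bases or more. Lower case means only that a base lies in no run of at least 10 bases shared among these 3 probes. The run that Cstdc5 shares with Csta2 is therefore in lower case. How far each probe also captures the transcript of a sister gene was not tested, and values of single stefin A genes are uncertain to that extent.

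The windows around the annotated starts of these genes are also alike. RefSeq promoter windows (build GRCm38.p6, 250 bases before to 50 after the start) were available for 9 of the cluster's genes that have a probe. Shown are the 3 most higher members and Csta2, whose level was close to control. Capitals mark the motif TTTAAAA, the motif AGATAA and the motif GAGGAGGAG on the strand shown, which were chosen after these windows were read.
Stfa1, chr16:36276898-36277197, plus strand: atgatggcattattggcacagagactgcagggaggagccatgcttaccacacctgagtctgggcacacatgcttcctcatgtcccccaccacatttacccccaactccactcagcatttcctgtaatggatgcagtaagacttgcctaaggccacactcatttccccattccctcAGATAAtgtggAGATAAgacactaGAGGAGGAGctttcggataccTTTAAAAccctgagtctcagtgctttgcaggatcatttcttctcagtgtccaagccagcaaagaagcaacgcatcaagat
Cstdc5, chr16:36367521-36367820, minus strand: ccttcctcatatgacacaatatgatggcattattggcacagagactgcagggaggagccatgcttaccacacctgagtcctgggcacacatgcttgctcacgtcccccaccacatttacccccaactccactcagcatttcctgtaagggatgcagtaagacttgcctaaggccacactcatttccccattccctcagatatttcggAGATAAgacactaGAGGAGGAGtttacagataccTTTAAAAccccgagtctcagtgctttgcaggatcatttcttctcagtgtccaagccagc
Stfa3, chr16:36455343-36455642, minus strand: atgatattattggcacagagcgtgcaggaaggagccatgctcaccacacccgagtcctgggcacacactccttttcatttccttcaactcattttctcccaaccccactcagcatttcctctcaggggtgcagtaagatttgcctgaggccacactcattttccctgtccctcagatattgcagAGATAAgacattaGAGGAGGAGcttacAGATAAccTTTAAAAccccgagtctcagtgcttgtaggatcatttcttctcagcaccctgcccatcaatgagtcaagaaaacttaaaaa
Csta2, chr16:36221312-36221611, plus strand: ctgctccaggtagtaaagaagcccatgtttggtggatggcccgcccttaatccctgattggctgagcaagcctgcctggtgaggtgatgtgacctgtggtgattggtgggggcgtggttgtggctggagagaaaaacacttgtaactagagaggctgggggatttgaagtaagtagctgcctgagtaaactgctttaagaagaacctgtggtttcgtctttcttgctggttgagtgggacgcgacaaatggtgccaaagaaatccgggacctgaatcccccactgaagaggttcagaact
The Stfa1 and Cstdc5 windows were identical at 269 of 280 locally aligned bases (96.1%), Cstdc5 and Stfa3 at 229 of 265 (86.4%), and Stfa2 and Stfa2l1 at 273 of 293 (93.2%). The Csta2 window aligned over 11 bases to that of Stfa1, over 33 to that of Cstdc5 and over 21 to that of Stfa3. Searched on both strands, the TTTAAAA letters were present in 7 of the 9 windows, starting 30 bases before the annotated start in Stfa1, 31 in Stfa3 and 9 in Cstdc5, and in 8.76% of 32544 RefSeq windows. Csta1 and Csta2 were the 2 windows without it. GAGGAGGAG was present in 6 of 9 windows and in 3.39% of all. The GATA-type motif, AGATAA, was present in 4 of 9 windows and in 11.2% of all. The ETS-type motif GAGGAA was present in 7 of 9 windows and in 28.1% of all, and the C/EBP-type motif TTNCNNAA in 6 of 9 windows and in 40.7% of all. In these 9 windows 0 matches of different motifs overlapped. Most of the windows are near copies, so the counts are not independent, and a match of letters is not a measured site.

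All 5 stefin A members were higher in the Tie-2-Etv2 arrays, from at least 3.12-fold for Stfa2l1 to 8.57-fold for Cstdc5, and close to each other on the 2 arrays. Cstb, which encodes the cytosolic inhibitor stefin B, and Cst3, which encodes the secreted inhibitor cystatin C, were lower. Cst7, which encodes cystatin F of leukocyte lysosomes, lay on opposite sides of the control on the 2 arrays. All 8 members passed the filter on dim probes (detected well above background either in the control or in both Tie-2-Etv2 samples), Stfa2l1 only through its Tie-2-Etv2 values. Of the 8, 5 reached 2-fold above the control in both Tie-2-Etv2 samples and 1, Cstb, reached 2-fold below it. Of all 26217 tested probes, 3.82% were 2-fold higher by that rule and 6.26% 2-fold lower. Nothing is read from those shares, since the members were picked on this contrast. In sorted bulk RNA a gene that is on in more cells and a gene with more RNA per cell cannot be told apart.

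Stfa1, a cytosolic cathepsin inhibitor, had processed signals of 12402 and 24051 intensity units in Tie-2-Etv2 replicates 1 and 2, against 3170 in the control. As levels these were 3.37 and 3.52 (mean 3.45 ± 0.11 SD, n = 2) against 0.61. The 2 Tie-2-Etv2 arrays differed by 0.15 on the log2 scale and both lay above the control, 6.77-fold and 7.52-fold. Its probe lies at chr16:36285398-36285457 on the plus strand (mm9) and begins at base 358 of its transcript.

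Cstdc5, named for its cystatin domain, had levels of 3.23 and 3.39 in the Tie-2-Etv2 arrays, against 0.21 in the control. It was 8.09-fold and 9.08-fold higher, the furthest from control among the members. Stfa3 had levels of -1.49 and -1.50, against -4.55. Its 2 Tie-2-Etv2 arrays were the closest of any member, with a difference of -0.01 between replicate 2 and replicate 1 in log2, and its folds were 8.34 and 8.29.

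Stfa2 was a dim probe, with signals of 49.6 and 116 intensity units in the Tie-2-Etv2 arrays and 23.6 in the control. Its levels were -4.60 and -4.17 against -6.46, so it was 3.64-fold and 4.87-fold higher. Its mapped span on chromosome 16, 36404032 to 36404089 on the minus strand (mm9), is 58 bases for a probe of 60.

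Stfa2l1 was dimmer still and was not well above background in the control. Its levels were -5.53 and -5.65 in the Tie-2-Etv2 arrays, and its measured control value was -7.61, under the lowest detected level of that array, -7.23. Against that lowest level the Tie-2-Etv2 average was at least 3.12-fold higher. Its probe maps across 1759 bases of chromosome 16, 36160118 to 36161876 on the plus strand (mm9), and so spans a gap in the genome. Both dim members shrank with normexp background correction, which models signal and background together and here added an offset of 50 to the signals. Their mean log2 differences became 1.03 for Stfa2 and 0.79 for Stfa2l1. An added constant by itself shrinks the differences of dim probes, and its share in this drop was not tested. Of the other 3 stefin A members, Stfa1 and Cstdc5 stayed between 2.76 and 3.18 over every alternative run. Stfa3, with a control signal of 88.4 intensity units, fell from 3.06 to 2.46 with normexp.

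**Figure D1:**
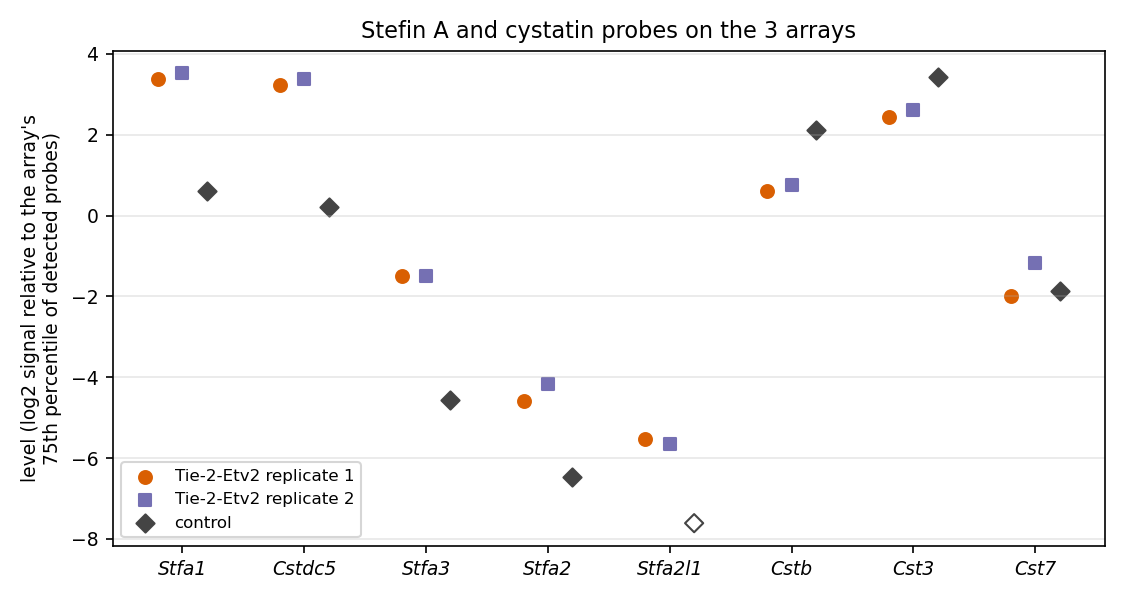
Level of each member probe on the 3 arrays, in log2 signal relative to the 75th percentile of detected probes of that array. Each point is 1 array, and the open diamond is a value not well above background. For the 5 stefin A members on the left both Tie-2-Etv2 points lie above the control point, while for Cstb and Cst3 both lie below it. Levels of different probes are not comparable.

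Cstb had levels of 0.61 and 0.76 in the Tie-2-Etv2 arrays, against 2.11 in the control. It was 2.83-fold and 2.55-fold lower, and the 2 arrays were 0.15 apart. Cst3 had levels of 2.43 and 2.63, against 3.43, and was 1.87-fold lower on average. It reached 2-fold on replicate 1 alone and was 1.75-fold lower on replicate 2. The Cstb probe lies at chr10:77890058-77890117 and the Cst3 probe at chr2:148697681-148697740, on the plus and minus strand (mm9).

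Cst7 had levels of -1.99 and -1.17 in the Tie-2-Etv2 arrays, against -1.87 in the control. The 2 Tie-2-Etv2 arrays were 0.82 apart in log2, the widest gap of any member, and the control lay between them. Its direction therefore rests on which array is used. The probe lies at chr2:150404490-150404549 on the plus strand (mm9).

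Replicate 2 lay further from control than replicate 1 in 3 of the 5 stefin A members, Stfa1, Cstdc5 and Stfa2. Among the 1001 tested probes at least 2-fold higher on both arrays, 12.6% had replicate 2 further from control, and the median difference was 0.63 larger on replicate 1. The 5 stefin A members all had their 2 Tie-2-Etv2 levels within 0.5 in log2, as had 40.2% of those 1001 probes. The members were chosen for being alike on the 2 arrays, so this describes the choice.

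Each member was read from 1 spot per array, so its own spot error was not measured. Probes printed in many copies show its usual size: over 213 to 229 such probes per array, the median SD between spots of 1 probe was 0.080 and 0.073 in the Tie-2-Etv2 arrays and 0.066 in the control array, in log2. Csta2, printed 10 times, had an SD of 0.15 and 0.11 in the Tie-2-Etv2 arrays and 0.11 in the control array. The gap between the 2 Tie-2-Etv2 arrays was at most 0.19 in log2 for Stfa1, Cstdc5, Stfa2l1, Stfa3, Cstb and Cst3, 0.42 for Stfa2 and 0.82 for Cst7. Spot SDs hold technical error alone, so they do not measure the spread between samples.

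**Figure D2:**
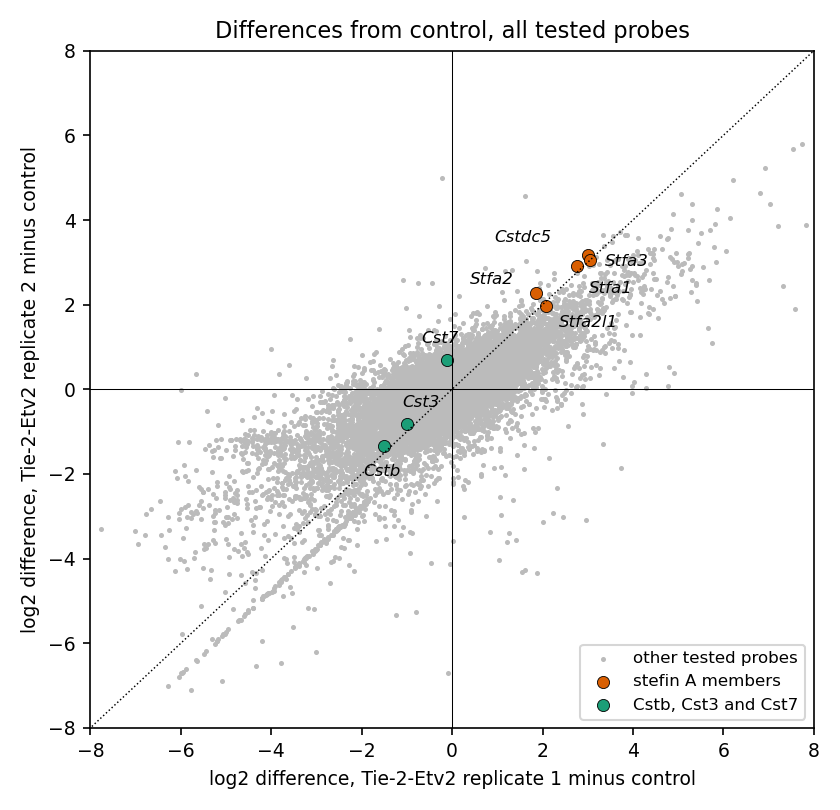
Log2 difference from control of every tested probe, Tie-2-Etv2 replicate 1 on the x axis and replicate 2 on the y axis, with the members in colour and the dotted line marking equal differences. The stefin A members sit near the dotted line at 1.86 to 3.18, Cstb and Cst3 near it at -1.50 to -0.81, and Cst7 near the y axis. Both axes share the 1 control array, and 4 probes lie outside them.

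The naming rule left out part of the stefin A cluster, which the array measures with 5 further probes of genes that RefSeq places between Csta1 and Stfa3. Csta3 was the furthest from control, with levels of -3.36 and -3.91 in the Tie-2-Etv2 arrays and a control value of -7.47 that was not well above background, which makes it at least 12.1-fold higher. With normexp its mean log2 difference was 1.81, against 3.84 without. Cstdc4 had levels of -4.23 and -4.14, against -5.92, and was 3.21-fold and 3.41-fold higher, but with normexp its mean log2 difference was 0.95, under 2-fold. Csta2 had signals of 74.7 and 148 intensity units, against 113, which after scaling is 1.14-fold and 1.30-fold higher. Csta1 and Cstdc6 were not well above background on any array. Gm4758, a probe that kept its old name and lies at 36312661 to 36312720 of chromosome 16 (mm9), was above background on the Tie-2-Etv2 arrays only, at -6.28 and -6.57, and was at least 1.75-fold higher.

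None of these genes passed limma's test over all tested probes, with Benjamini-Hochberg adjustment: the adjusted p was 0.256 for Cstdc4 and 0.910 for Csta2. Csta3 and Gm4758, each at an adjusted p of 0.199 in limma, met the filter only through the Tie-2-Etv2 arrays, and their p rests on control values that were not well above background. The test has 1 residual degree of freedom, from the Tie-2-Etv2 pair, and assumes that the lone control varies like that pair. It called 0 of 26217 probes (0%), with a smallest adjusted p of 0.199 and 2737 probes at an unadjusted p under 0.05. With normexp it called 700 and with no filter on dim probes 551. With 2 arrays against 1, the smallest p that exact permutation allows is 0.333.

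The Csta2 and Cstdc5 probes share the longest run of letters in the cluster, 25 bases, which are bases 1 to 25 of the Csta2 probe and 33 to 57 of the Cstdc5 probe. Their log2 differences from control were 0.19 and 0.37 for Csta2, and 3.02 and 3.18 for Cstdc5. Cstdc4 and Stfa3 share 22 bases, with mean log2 differences of 1.73 and 3.06.

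**Figure D3:**
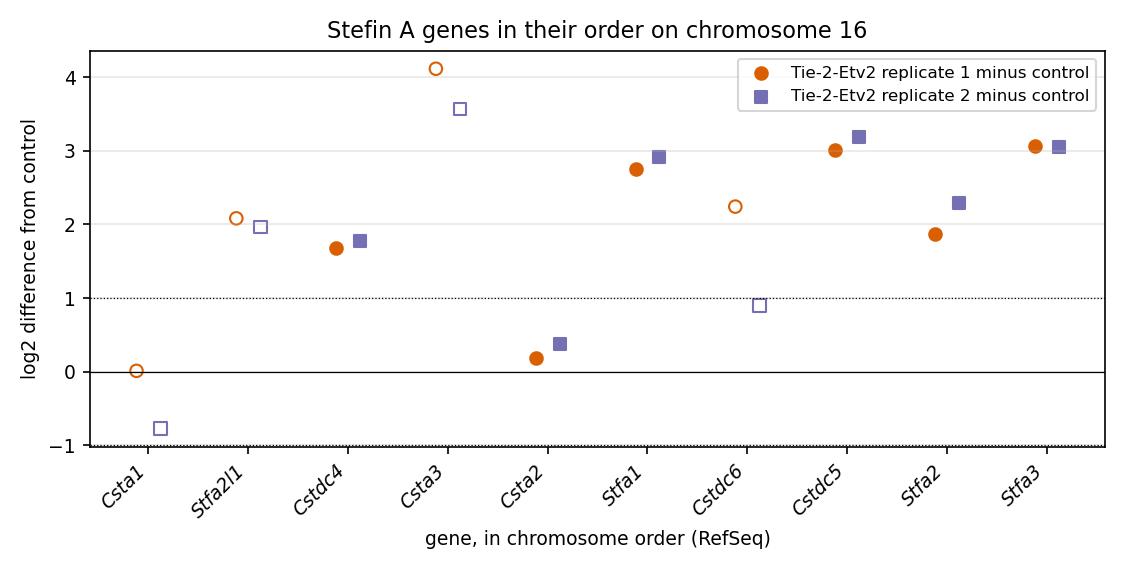
Log2 difference from control on each Tie-2-Etv2 array for the stefin A genes with a probe, in their RefSeq order along chromosome 16. Open symbols mark differences in which the control or that Tie-2-Etv2 value was not well above background, and dotted lines mark 2-fold. Csta2 stands between Csta3 and Stfa1 with differences of 0.19 and 0.37, whereas Csta3 and Stfa1 lie at 2.76 to 4.11.

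Genes on either side of the cluster mostly lay near the control. Of the 5 nearest tested genes before Csta1 (Parp9, Kpna1, Wdr5b, Fam162a and Ccdc58) and the 5 after Stfa3 (Cd86, Eaf2, Iqcb1, Golgb1 and Hcls1), 1 was 2-fold apart on both arrays. Among all tested genes 3.92% were 2-fold higher and 6.64% 2-fold lower, so nothing is read from this count. The 1 gene was Cd86, a costimulatory receptor gene of antigen-presenting cells and the nearest on the Stfa3 side. Its log2 differences were -2.64 and -2.07, opposite in direction to the stefin A genes. Ccdc58 on the other side had differences of 0.02 and 0.20.

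Most other cystatin probes were not well above background. Of 22 further cystatin probes on the array, the stefin A genes above included, 14 were on no array well above background. Among these 14 were Cst8, Cst9, Cst11 and Cst12, cystatin genes known mainly from the male reproductive tract. The other 8 met the filter on dim probes, as did 26217 of the 55668 probes used over the whole array. Nothing is read from that count. Cst6, which encodes cystatin M/E, was detected on both Tie-2-Etv2 arrays alone, at -6.26 and -6.99, and was at least 1.52-fold higher in their mean. The kininogen genes Kng1 and Kng2, whose secreted proteins carry cystatin domains, were lower. Kng1 had levels of -4.96 and -3.59, against -2.18, and limma gave it an adjusted p of 0.431.

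The proteases that cystatins inhibit stood mostly below the control. Of 10 papain-like cysteine cathepsin genes, 8 were tested, and 7 of these were 2-fold lower or more on both arrays, 0 were 2-fold higher and none was past limma's test. Over all 19583 tested genes 6.64% were 2-fold lower and 3.92% 2-fold higher. The list's median log2 difference was -2.98 on replicate 1 and -1.58 on replicate 2, where the medians over all genes were 0.08 and 0.05.

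Ctsb, which encodes the widely expressed cathepsin B, had levels of 0.92 and 1.60 in the Tie-2-Etv2 arrays, against 3.93 in the control (limma, adjusted p = 0.238). Ctsl, an endopeptidase gene, had log2 differences of -2.49 and -1.78, and Ctsz, a carboxypeptidase gene, -2.94 and -1.15. Ctss, whose enzyme trims the invariant chain of MHC class II, differed most from control in this list, with levels of -4.51 and -1.59 against 1.05, and limma gave an adjusted p of 0.423. Ctsc, whose product activates granule serine proteases and is restrained by cystatin F, stood at -1.02 and 0.88 against 2.13. Ctsh and Ctsf completed the 7, Ctsf with differences of -2.05 and -1.86. Ctsw, a cathepsin gene of cytotoxic lymphocytes, had differences of 0.63 and 0.23, and Ctsk and Ctso were detected on no array.

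Legumain (Lgmn), an asparaginyl protease that cystatin C also inhibits, had levels of -0.84 and 0.64, against 3.42 in the control (limma, adjusted p = 0.276). Cathepsins of other protease classes, which cystatins do not inhibit, were mixed. Ctsd, an aspartic protease gene, had differences of -0.11 and -0.29, and Ctsa, a serine carboxypeptidase gene, -1.14 and -1.07, while its other probe gave 0.68 and -1.78. Ctse, an aspartic protease gene, was at least 7.58-fold higher. Ctsg, a neutrophil granule serine protease gene, averaged at least 2.35-fold above control, but the 2 arrays were unlike. Its log2 differences from the measured control value were 2.20 on replicate 1 and 0.61 on replicate 2, the latter under 2-fold. Neither Ctse nor Ctsg was well above background in the control. The 8 placental cathepsin genes on the array, known from trophoblast, were not tested, as none met the filter.

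**Figure D4:**
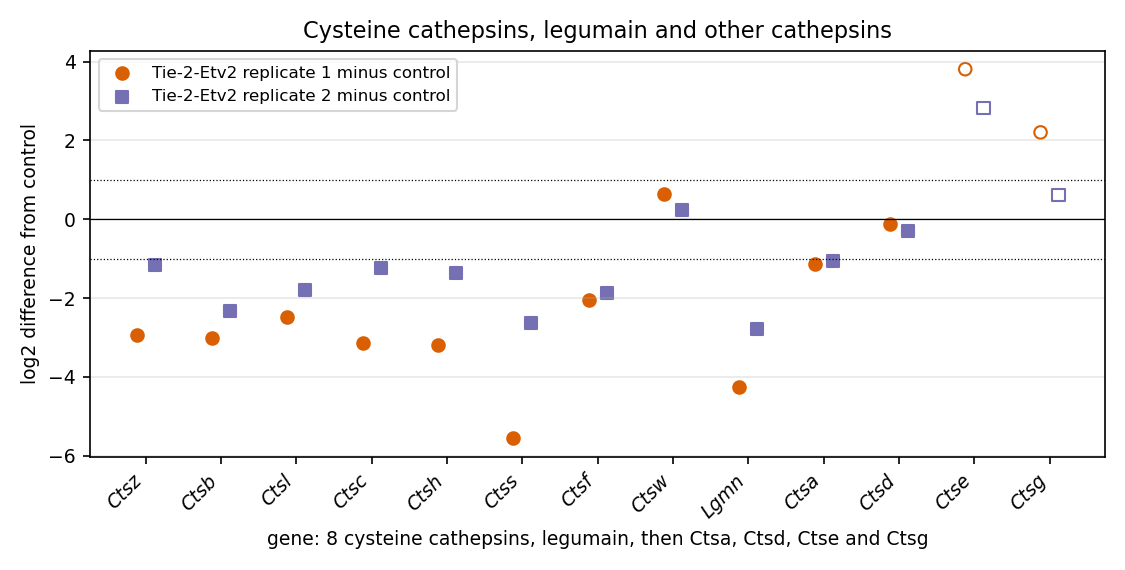
Log2 difference from control on each Tie-2-Etv2 array for the 8 tested cysteine cathepsins, legumain and 4 cathepsins of other classes. Open symbols mark differences in which a value was not well above background, and dotted lines mark 2-fold. The 7 cysteine cathepsins from Ctsz to Ctsf lie at -5.55 to -1.15 and Lgmn at -4.25 and -2.78, while Ctsw and Ctsd lie within 2-fold.

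Markers of macrophages, cells rich in cathepsins and cystatin C, were lower, as were Cst3, Cstb and most cysteine cathepsins. Of 13 macrophage genes 11 were tested, and Vsig4 and Cd163 did not meet the filter. Of the 11 tested, 11 were 2-fold lower or more on both arrays, where 6.64% of all tested genes were. The sum of their linear levels was 1.04 and 6.58 in the Tie-2-Etv2 arrays, against 43.5 in the control. Bright probes weigh most in that sum, and Cx3cr1 was the brightest of these genes on each array. Cx3cr1, a chemokine receptor gene, had levels of -1.17 and 1.75 against 4.03. Adgre1, which encodes the F4/80 antigen, had levels of -5.56 and -3.71 against 0.57. Timd4 was not well above background on either Tie-2-Etv2 array, and Mertk not on replicate 1. Timd4 and Mertk therefore met the filter only through the control array, where they were high. The part of macrophage genes in the lower Cst3, Cstb and cathepsin values was not tested. The macrophage medians were -5.28 on replicate 1 and -3.02 on replicate 2.

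Neutrophil genes, the usual company of stefin A in blood, were in part higher. Of the 16 that were tested, 7 reached 2-fold above control on both arrays, where 3.92% of all tested genes did. None reached 2-fold below, where 6.64% of all did, and none was past limma's test. The 7 include Ltf, which met the filter only through the Tie-2-Etv2 arrays. The list's medians were 1.18 and 0.88. The sum of linear levels was 63.6 and 65.1 in the Tie-2-Etv2 arrays, against 28.3 in the control, and Mpo alone made up 37.4 and 43.9, against 17.9. Without Mpo the sum was 26.2 and 21.2, against 10.4. S100a8 and S100a9, which encode calprotectin, had differences of 5.31 and 4.37, and 4.61 and 3.63. Ms4a3, a gene of granulocyte progenitors, had levels of -0.24 and -0.29 against -3.42, and Cebpe, a transcription factor gene of granule formation, differences of 1.93 and 1.87. Mpo, the myeloperoxidase gene, had levels of 5.22 and 5.46 against 4.16, and its other probe had differences of 0.51 and 1.49, under 2-fold on replicate 1. The primary granule gene Elane had differences of -0.06 and -0.22, Prtn3 -1.18 and 0.88, and Chil3 -1.15 and -0.60. Ngp, itself a member of the cystatin superfamily, Mmp8, Retnlg and Padi4 did not meet the filter, and Ltf, Camp and Mmp9 were not well above background in the control. The part of neutrophil genes in the stefin A values was not tested.

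**Figure D5:**
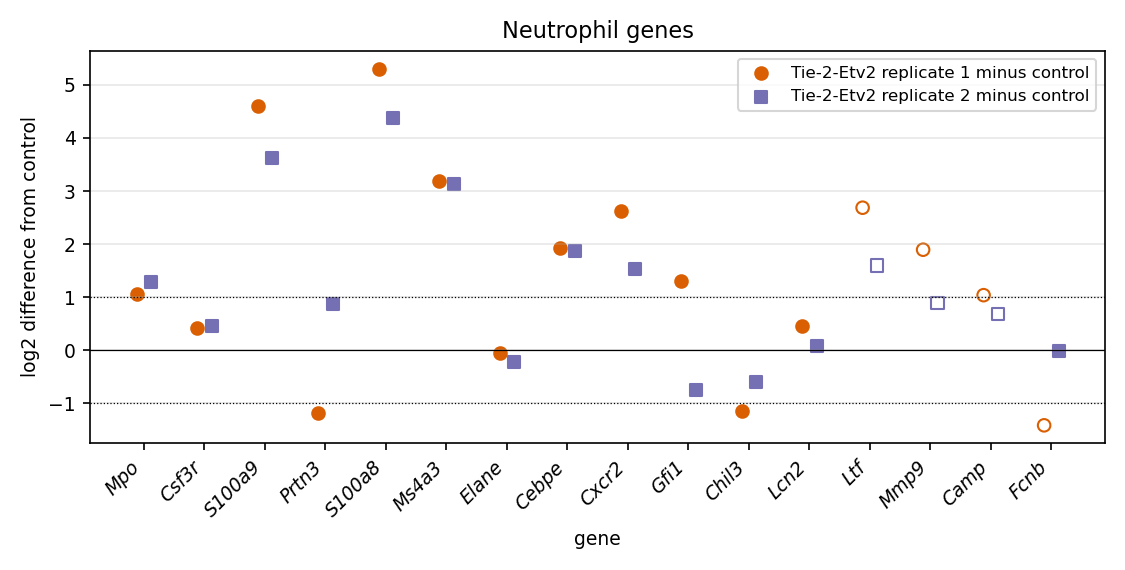
Log2 difference from control on each Tie-2-Etv2 array for the 16 tested neutrophil genes, ordered by their mean level. Open symbols mark differences in which a value was not well above background, and dotted lines mark 2-fold. S100a8, S100a9 and Ms4a3 lie above 3, Cebpe, Cxcr2 and Ltf at 1.53 to 2.69, Mpo just above 2-fold, and Elane, Csf3r and Lcn2 within 2-fold.

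Of the other markers, keratinocyte genes, from the other known site of stefin A, had 3 tested members with 0 at 2-fold on both arrays. Krt5 and Krt1 did not meet the filter. Of 8 mast cell genes 4 were tested, and Fcer1a, Ms4a2, Mcpt4 and Cma1 did not meet the filter. Of the 4, 1 was 2-fold higher, Cpa3, and Kit, Hdc and Tpsb2 were within 2-fold in the mean. Endothelial genes were 2-fold higher in 7 of 10, against 3.92% of all tested genes, and the 7 include Sox18, which was not well above background in the control. Erythroid genes were 2-fold lower in 5 of 8 and visceral endoderm genes in 4 of 4, against 6.64% of all tested genes.

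The 5 genes with the pattern most like the mean of the 5 stefin A probes, out of 17701 genes detected on both Tie-2-Etv2 arrays, were S1pr4, Tuba8, Inhba, LOC100504975 and Gstp3. Likeness was the Euclidean distance between mean-centred log2 levels over the 3 arrays. Of the 5, 4 had control values under the lowest detected level of that array (all but Tuba8), so their place in this order rests on values that were not measured above background. Tuba8 lay at a distance of 0.21, and the stefin A members themselves at 0.18 for Stfa1 to 0.51 for Stfa2l1. Tuba8, an alpha tubulin gene, had levels of 2.17 and 2.01 in the Tie-2-Etv2 arrays, against -0.45 in the control.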

How the data were processed

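The deposited intensity of a spot comes from Agilent Feature Extraction, version 10.7 according to the submitters' processing notes and 10.7.3.1 per the file headers. That program subtracted background array by array, and the arrays were not scaled to each other. A log2 table deposited by the authors has scale and centring not stated. Its differences between arrays matched the log2 processed signal within 0.01, once a constant was allowed for each Tie-2-Etv2 array (-0.76 and 0.016). This held for 100% of 55668 probes. Rows were centred on their median, and the column medians were 0.14, 0 and 0 (replicate 1, replicate 2, control).

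Control spots and outlier spots (168 to 174 per array) were left out, spots of a probe were averaged in log2, and each array's 75th percentile was subtracted, taken over 22764 probes detected well above background on every array. No non-control spot was saturated. Probes detected in the control or in both Tie-2-Etv2 samples were tested, 26217 probes of 19583 genes, with limma 3.58.1 in R 4.3.3 (lmFit, eBayes, two-sided, threshold 0.05); the fit was tested on simulated data. A gene was represented by its brightest probe by mean level. A probe not above background in the control was set at the higher of its own value and that array's lowest detected level. This gives the "at least" folds, which are those of the Tie-2-Etv2 mean and hold for this processing only. The number of arrays limits precision, and the p-values rest on the spread of these samples alone, which may be technical. Names were updated through RefSeq (GRCm38.p6): 26575 probes matched by accession, 2602 by symbol, 492 by synonym and 25999 kept the file name. Probe coordinates are mm9, per the file headers. Windows were aligned with Biopython 1.88.

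The members and the gene lists were chosen with earlier results of these data known. The rule for named genes took every member, the brightest genes of each list with the furthest in each direction, and the genes most like the stefin A mean. For the marker lists the text gives mostly counts and names only part of these; genes outside the rule were named after their values were seen. List members on a chromosome left out of this work are not used here.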

Additional observations from a re-analysis of the deposited data

How the results depend on the processing

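The 5 stefin A members were higher and Cstb and Cst3 lower under each of the 9 alternatives in which they had a value, 1 of which, raising undetected values to the lowest level detected on their array, was chosen after seeing the data. Members 2-fold higher numbered 5 except with normexp (3) and with only probes detected on all 3 arrays (4, without Stfa2l1), and those 2-fold lower numbered 1 to 2 with either Tie-2-Etv2 array left out. Cst7 moved between -0.12 and 0.70 with 1 Tie-2-Etv2 array left out. Probes 2-fold higher, 1001, became 1916 with no filter on dim probes, 354 with normexp and 628 with only probes detected on all 3 arrays, and probes 2-fold lower, 1640, became 565 with normexp and 714 with only probes detected on all 3. With 1 Tie-2-Etv2 array left out they were 1210 to 2353 and 2063 to 2931, the higher count of each on replicate 1 alone. Limma called 0 probes except with no filter (551) and normexp (700), and the cause was not tested. It was not run with an array left out, which leaves no residual degree of freedom. Cysteine cathepsins 2-fold lower numbered 7 under all alternatives, and neutrophil genes 2-fold higher 6 to 10. No paired analysis was possible because the control group has 1 sample, whose label carries no replicate number. Dim probes such as Stfa2 and Stfa2l1 are limited by signal over background, and their normexp differences also carry the effect of the offset.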
